A study of Mus musculus with 84 samples.

Results

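Mast cells act by emptying preformed granules, and the genes that carry out and steer that release were followed here in MMC9s, the IL-9-producing mucosal mast cells of the mouse small intestine. The set holds 36 genes chosen by name, of 55471 in the count tables, and each name was found once. It contains 5 VAMPs (vesicle SNAREs), 7 syntaxins and 2 SNAP proteins. A further 5 genes act in docking and priming, 6 are secretory Rabs, 6 are endosomal Rabs or their regulators, and 5 act in vesicle carriers, granule size or the actin cytoskeleton. The rule is the list of names and sets no threshold on expression. The names were chosen with earlier results of these data known. Counts from the set beside shares of all genes are therefore a description.

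Membrane fusion is driven by SNARE proteins: a vesicle SNARE pairs with a syntaxin and a SNAP protein on the target membrane, and the coiled complex pulls the membranes together. Munc18 proteins (Stxbp genes) and Munc13 proteins (Unc13 genes) help to assemble it, and Rab GTPases bring granules to the place of release. In mast cells VAMP8, SNAP-23, syntaxin-3, syntaxin-4, Munc18-2, Munc13-4 and the RAB27 proteins are the best known parts of this machinery, which acts after the IgE receptor is crosslinked.

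The bulk data came from BALB/c mice in a transfer model of food allergy. Wild-type (WT) recipients sensitized to ovalbumin received bone marrow progenitors of 1 of 3 genotypes, then 7 oral ovalbumin challenges at 3 per week. The donors were WT, carried IL4RaY709F, a gain-of-function allele of the gene for the IL-4 receptor alpha chain, or lacked the receptor's function (IL4Ra-/-). The recipients were WT in all 3 groups, so the genotype is that of the transferred marrow. The sources used here do not say how donor MMC9s were told from those of the host. Each genotype has 1 library, pooled from 12 to 20 biological replicates, so no difference between genotypes has a replicate check and no p-value was computed. A second data set holds 81 WT MMC9s from an Ova/alum model, sorted singly as Lin- and IL-4GFPhigh cells that were IL-17RB2- and β7-integrinlow and carried both c-Kit and ST2. The labels name no animal for them, and they count as 1 sample. The sources used here do not state ages.

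Gene reads numbered 2299793 for WT, 2521791 for IL4RaY709F and 2330628 for IL4Ra-/-, and the 36 genes took between 0.431% and 0.471% of them. Il4ra, the gene altered in both mutants, had 806 reads in WT, 1831 in IL4RaY709F and 350 in IL4Ra-/-. All 15 mast cell markers were detected in the kept cells: Cpa3, Fcer1a, Hdc, Mcpt1, Gata2 and Srgn in 80 of 80, and the least often Tpsb2 in 59, Mitf in 49 and Tpsab1 in 23. Their summed level in IL4RaY709F was 1.42-fold that of WT (1.41 to 1.43) and in IL4Ra-/- 0.937-fold (0.931 to 0.944). Single markers went both ways under these sums. From WT to IL4RaY709F, Cma1 went from 2978 to 9658 reads and Kit from 6769 to 6307. From WT to IL4Ra-/-, Mcpt1 went from 22405 to 34049 reads and Hdc from 29230 to 21410. The libraries differed in markers of other cells. Summed over the 13 of 14 macrophage genes that were rare in the single MMC9s (detected in under 5% of cells), there were 402 reads in WT, 219 in IL4RaY709F and 1474 in IL4Ra-/-. Over 16 of 17 epithelial genes, chosen likewise, there were 48, 53 and 288 reads. In bulk libraries fewer cells of a type and less RNA per cell cannot be told apart. Every interval given covers counting error only. Intervals on reads treat the reads as independent. Reads of amplified libraries are not independent molecules, so these intervals can be too narrow.

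The gene set as a whole stood at nearly the same level in the 3 genotypes. Comparisons used reads expressed as CPM with TMM factors, which align the libraries on the bulk of their genes. A gene passed the size rule when the larger library had at least 50 reads, the ratio was at least 2-fold and its 95% counting interval excluded a ratio of 1. In IL4RaY709F against WT, 29 of the 36 genes had enough reads. None of them was higher by this rule and 1, Rab11fip4, was lower, against a background of 1.68% of all 5964 genes higher and 0.771% lower. In IL4Ra-/- against WT, 32 had enough reads. Vamp7 and Stx2 were higher and none was lower, against a background of 2.43% and 1.3% of 6246 genes. Both comparisons share the WT library.

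The median log2 ratio of the set was 0.02 in IL4RaY709F against WT, as over all genes tested (0.02). It was -0.06 in IL4Ra-/- against WT, where all genes tested had -0.08. Scaling by total reads turns the sign of all these medians, as it shifts every ratio by -0.11 and by 0.13 respectively. The robust SD of the set's log2 ratios was 0.19 in IL4RaY709F, where all genes had 0.31, and 0.37 in IL4Ra-/-, where all genes had 0.38. The intervals of 31.03% of the measured set excluded a ratio of 1 in IL4RaY709F and of 43.75% in IL4Ra-/-, beside 31.7% and 39.98% of all genes.

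**Figure D1:**
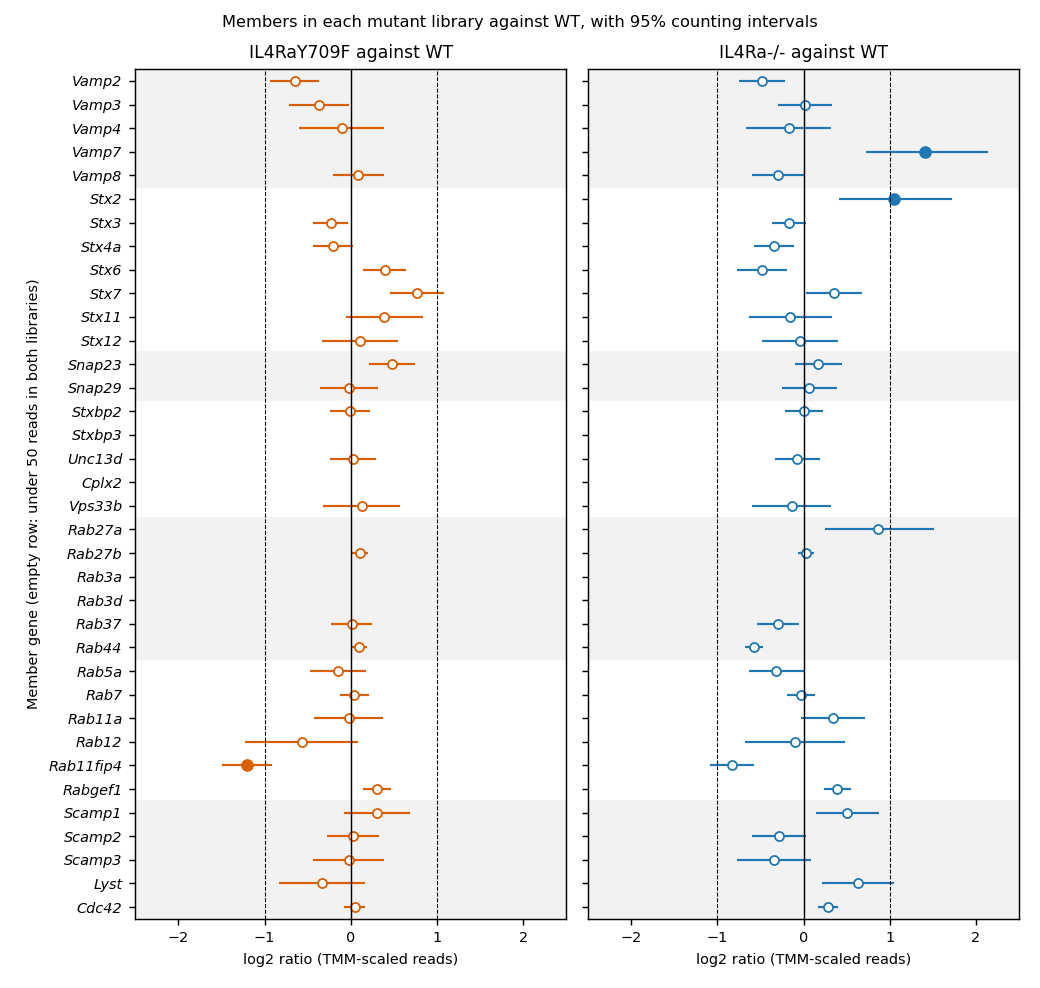
Log2 ratio of TMM-scaled reads (x axis) for each gene (y axis) in IL4RaY709F (left) and IL4Ra-/- (right) against WT, 1 library each, with 95% counting intervals as lines. Filled points pass the size rule (Rab11fip4 on the left, Vamp7 and Stx2 on the right), dashed lines mark 2-fold, shading separates the functional groups, and genes under 50 reads in both libraries have no point.

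The vesicle SNAREs did not share a direction. Vamp8, the VAMP best tied to mast cell degranulation, had 186 reads in WT, 201 in IL4RaY709F and 169 in IL4Ra-/-. Scaled, these are 81.4, 86.4 and 66.5 CPM, and neither mutant's interval against WT excluded equality (log2 0.09, -0.21 to 0.38, and -0.29, -0.60 to 0.02). Vamp2, the synaptic VAMP, stood at 117 CPM in the WT library and at 74.8 and 84.2 CPM in IL4RaY709F and IL4Ra-/-. WT was thus the highest library, 1.57-fold over IL4RaY709F (1.29 to 1.91) and 1.39-fold over IL4Ra-/- (1.16 to 1.68). Vamp3, or cellubrevin, a VAMP of recycling endosomes, stood at 70.01, 54.2 and 70.8 CPM in the same order. Its IL4RaY709F library was the lowest, with a log2 ratio to WT of -0.37 (-0.72 to -0.02). Vamp4, of the trans-Golgi network, had 73, 69 and 72 reads.

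Vamp7, a VAMP of late endosomes and lysosomes, had the highest ratio of the set in IL4Ra-/- against WT. It had 24 reads in WT, 31 in IL4RaY709F and 71 in IL4Ra-/-, or 10.5, 13.3 and 27.9 CPM. The IL4Ra-/- library stood apart from both others, 2.66-fold over WT (1.65 to 4.42) and 2.09-fold over IL4RaY709F (1.36 to 3.31). Of the reads of Vamp7 and Vamp8 together, Vamp7 took 11.4% in WT (exact 95% interval 7.46% to 16.5%), 13.4% in IL4RaY709F (9.26% to 18.4%) and 29.6% in IL4Ra-/- (23.9% to 35.8%). The deposited coordinates of Vamp7 lie on the scaffold GL456233.1 (GRCm38, 10738 to 39148, minus strand).

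Among the syntaxins, the target-membrane SNAREs, Stx3 and Stx4a were the most abundant. Stx3, a partner of VAMP8 in mast cells, had 430 reads in WT, 373 in IL4RaY709F and 426 in IL4Ra-/- (188, 160 and 168 CPM). Stx4a, the mouse syntaxin-4 gene, had 332, 292 and 291 reads (145, 126 and 114 CPM). WT was the highest library for both, by under 1.5-fold: the log2 ratios to WT were -0.23 (-0.43 to -0.03) and -0.17 (-0.36 to 0.03) for Stx3, and -0.21 (-0.44 to 0.02) and -0.34 (-0.58 to -0.11) for Stx4a.

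Stx7, of late endosomes, had 134 reads in WT, 232 in IL4RaY709F and 190 in IL4Ra-/-. Both mutants were above WT, IL4RaY709F by 1.70-fold (1.37 to 2.12), the highest ratio of the set in that comparison. Stx6, of the trans-Golgi network and endosomes, had 232, 310 and 185 reads, or 102, 133 and 72.8 CPM. Its order was that of receptor activity, with IL4RaY709F above WT (log2 0.39, 0.14 to 0.64) and IL4Ra-/- below it (-0.48, -0.77 to -0.20). Stx11, whose human counterpart is mutated in a familial hemophagocytic disease, had 76, 101 and 76 reads, and Stx12 had 85, 93 and 92. Stx2, or epimorphin, was the second gene past the size rule in IL4Ra-/-: 30 reads in WT, 38 in IL4RaY709F and 69 in IL4Ra-/-, a ratio of 2.07 to WT (1.33 to 3.29). With counts this low, neither Vamp7 nor Stx2 was tested at a minimum of 200 reads.

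Snap23, the SNAP protein of mast cell exocytosis, stood at 88.8, 123 and 99.9 CPM in WT, IL4RaY709F and IL4Ra-/- (203, 287 and 254 reads). The IL4RaY709F library was the highest, 1.39-fold over WT (1.16 to 1.67). Snap29, a SNAP without membrane anchor that acts in endosomes and autophagosomes, had 150, 150 and 175 reads, and its intervals held a ratio of 1 in each comparison. Its exons overlap by 60 bases those of Pi4ka on the opposite strand, and the strand setting of the counts is not known.

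Of the 5 docking and priming genes, 3 had enough reads to compare, and their ratios lay near 1. Stxbp2, encoding Munc18-2, had 139, 138 and 139 CPM in WT, IL4RaY709F and IL4Ra-/-, from 317, 320 and 354 reads. Unc13d, encoding Munc13-4, had 104, 105 and 98.7 CPM, from 237, 245 and 251 reads. The 3 libraries could not be told apart in either gene: the log2 ratios to WT lay between -0.07 and 0.02, and the intervals reached at most from -0.33 to 0.29. Vps33b, of the complex that sorts granule cargo, had 82, 91 and 83 reads. Stxbp3, the Munc18-3 gene, had only 9, 13 and 18 reads. Cplx2, encoding complexin II, a clamp of SNARE complexes, had 0 reads in all 3 libraries, where 3 reads would be 1.18 to 1.31 CPM.

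Of the secretory Rabs, Rab44 and Rab27b carried most of the reads. Rab44, a large Rab with an EF-hand region known from mast cell granules, lies on chromosome 17 (29114145 to 29148980, plus strand). It had 1883 reads in WT, 2041 in IL4RaY709F and 1405 in IL4Ra-/-, or 824, 878 and 553 CPM. The IL4Ra-/- library was the low one, 1.49-fold under WT (1.39 to 1.60) and 1.59-fold under IL4RaY709F (1.48 to 1.70). It did not pass the size rule, and among the 420 genes with at least 1000 reads in the larger library, 12.4% had a ratio to WT at or below that of Rab44. Rab27b, the main RAB27 of mast cells, had 1784, 1959 and 2031 reads, or 781, 842 and 799 CPM. Its 3 libraries lay within a log2 ratio of 0.11 of each other.

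Rab27a, its close relative, moved the other way from Rab44 at a far lower level. It had 33 reads in WT, 25 in IL4RaY709F and 67 in IL4Ra-/-, with 14.4, 10.7 and 26.3 CPM. The IL4Ra-/- library was the highest, with a log2 ratio to WT of 0.87 (0.25 to 1.52), short of the rule. Scaled by total reads the ratio was 1.002 and passed. By that scaling 3.31% of all genes were higher by the rule, beside 2.43% with TMM factors. Of the reads of the RAB27 genes, Rab27a took 1.82% in WT (1.25% to 2.54%), 1.26% in IL4RaY709F (0.817% to 1.85%) and 3.19% in IL4Ra-/- (2.48% to 4.04%). Rab37, a secretory Rab of mast cells, had 300, 307 and 272 reads. Rab3d, of secretory granule membranes, had 30, 42 and 44 reads, or 13.1, 18.1 and 17.3 CPM. With under 50 reads in each library, it was not tested by the size rule. Its log2 ratios to WT were 0.46 (-0.25 to 1.19) and 0.40 (-0.30 to 1.12). Rab3a, the neuronal relative of Rab3d, had 3, 4 and 3 reads.

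Among endosomal Rabs and regulators, Rab11fip4 (chromosome 11, 79591212 to 79698023, plus strand) was low against WT in both mutants. It passed the size rule in IL4RaY709F only. It encodes an effector of RAB11 recycling endosomes. WT had 328 reads, IL4RaY709F 145 and IL4Ra-/- 206, or 144, 62.3 and 81.0 CPM. WT was the highest library, 2.30-fold over IL4RaY709F (1.89 to 2.82) and 1.77-fold over IL4Ra-/- (1.48 to 2.12). Of the 2003 genes with 200 to under 1000 reads, 0.15% had a ratio at or below its value in IL4RaY709F. For its value in IL4Ra-/- the share was 2.76% of 2066 genes. Both ratios use the same WT library.

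Rab11a, the Rab it binds, had 106 reads in WT, 106 in IL4RaY709F and 149 in IL4Ra-/-, and its intervals included equality in each comparison. Rabgef1, encoding Rabex-5, an exchange factor for RAB5, had 559, 701 and 816 reads (245, 301 and 321 CPM). Both mutants were above WT, by log2 0.30 (0.14 to 0.46) and 0.39 (0.23 to 0.55). Rab5a, of early endosomes, had 171, 157 and 153 reads, and Rab7, of late endosomes, had 586, 613 and 637. Rab12, which moves mast cell granules along microtubules, had 51, 35 and 53 reads. It was among the 3 lowest ratios in IL4RaY709F, at log2 -0.57, but its interval (-1.23 to 0.08) held equality.

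In the last group, Cdc42, a small GTPase of the actin cytoskeleton, had 1052 reads in WT, 1104 in IL4RaY709F and 1421 in IL4Ra-/-. IL4Ra-/- was 1.21-fold over WT (1.12 to 1.32). Lyst, the lysosomal trafficking regulator whose loss gives giant granules in beige mice, had 79, 64 and 136 reads. Its IL4Ra-/- library was the highest, 1.55-fold over WT (1.16 to 2.07). The secretory carrier membrane proteins Scamp1, Scamp2 and Scamp3 had ratios to WT between log2 -0.34 and 0.51 in both mutants, and only the 0.51 of Scamp1 in IL4Ra-/- (0.15 to 0.87) had an interval that excluded 0.

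Between the mutants, none of 32 genes was higher in IL4RaY709F and Rab27a and Vamp7 were lower, against a background of 4.62% of 6319 genes higher and 3.5% lower. Rab27a was 2.45-fold higher in IL4Ra-/- than in IL4RaY709F (1.53 to 4.05). Lyst had the next lowest ratio (log2 -0.96, -1.41 to -0.52). By total reads it was -1.20 and passed, where 5.68% of all genes were lower. At the other end stood Stx6 (0.87, 0.61 to 1.14), Rab44 (0.67, 0.57 to 0.77) and Stx11 (0.54, 0.10 to 0.99).

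A lower threshold of 1.5-fold added a few genes in each comparison. In IL4RaY709F against WT, Stx7 was higher and Vamp2 and Rab11fip4 lower, where 6.15% and 3.55% of all genes were. In IL4Ra-/- against WT, Vamp7, Stx2, Rab27a and Lyst were higher and Rab11fip4 lower, beside 6.52% and 8.85% of all genes. Between the mutants, Stx6 and Rab44 were higher in IL4RaY709F, and Vamp7, Stx2, Rab27a and Lyst were lower, beside 14.6% and 8.36%. The 4 genes low in IL4RaY709F here are the 4 high in IL4Ra-/- against WT, and both comparisons use the IL4Ra-/- library.

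WT lay between the mutants for 16 of these 32 genes. In 10 of them the order was IL4RaY709F, WT, IL4Ra-/- from high to low: Vamp8, Stx6, Stx11, Stx12, Unc13d, Vps33b, Rab37, Rab44, Rab7 and Scamp2. The order was opposite in 6: Vamp3, Snap29, Stxbp2, Rab27a, Rab11a and Lyst. These are 31.25% and 18.75% of the set, beside 27.75% and 17.4% of all 6400 genes. With the size rule between the mutants added, 0 were in the first order and 1, Rab27a, in the second, against a background of 4.08% and 2.91%. The split depends on the scaling. By total reads, which shifts every ratio between the mutants by log2 -0.24, it was 3 in the first order and 11 in the second. The shares over all genes were not computed at that scaling, so these counts say nothing particular to the set.

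Markers of other cells also differed between the libraries, in both directions. In the library where Vamp7, Stx2, Rab27a and Lyst were highest, the rare macrophage genes summed to 3.30-fold the WT level (2.95 to 3.69), the rare epithelial genes to 5.39-fold (3.96 to 7.48) and the rare dendritic cell genes (7 of 10) to 2.67-fold (2.18 to 3.29). The rare T cell or ILC2 genes (9 of 12) were also higher there, at 2.07-fold (1.29 to 3.42). Those of stromal, endothelial or nerve cells (9 of 10) stood at 1.26-fold (0.845 to 1.89). The rare lists of B or plasma cells (0.751-fold, 0.662 to 0.852), basophils (1 gene, 0.691-fold, 0.510 to 0.934) and eosinophils or neutrophils (0.670-fold, 0.494 to 0.905) were lower there. Each of these sums rests mainly on 1 gene: Iglc1 (497 of 547 WT reads), Il3ra and Siglecf (98 of 106 WT reads). All 13 B or plasma cell genes together stood higher in IL4Ra-/-, at 1.98-fold the WT level (1.94 to 2.01). Igha in that list had 8453 reads in WT and 17406 in IL4Ra-/-. The macrophage sum in IL4RaY709F, where Rab11fip4 and Vamp2 were lowest, was 0.535-fold (0.452 to 0.633), while Vamp7 and Stx2 stood at log2 0.34 (-0.47 to 1.18) and 0.32 (-0.41 to 1.06) with under 50 reads. Of the defining macrophage genes, Lyz2, C1qb and C1qc had 103, 36 and 36 reads in WT and 414, 89 and 95 in IL4Ra-/-, and none was detected in any of the 80 WT cells. C1qa, the 1 list gene not rare in the cells, had 31 reads in WT and 157 in IL4Ra-/- and was detected in 7 cells. Their part in the results was not tested. In the WT cells themselves Vamp7 was detected in 19, Lyst in 14, Stx2 in 5 and Rab27a in 4 of 80.

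Levels of different genes were compared per length, as TPM (reads per base of exon, scaled to a fixed sum). These values describe shares within 1 library and carry no TMM scaling. In WT the highest genes of the set were Rab44 (518 TPM), Cdc42 (494 TPM), Rab7 (313 TPM), Rab27b (233 TPM) and Stx4a (196 TPM). In IL4Ra-/- Cdc42 (640 TPM) stood above Rab44 (371 TPM). Among VAMPs, Vamp8 led with 34.7% of their summed TPM in WT, 42.7% in IL4RaY709F and 31.1% in IL4Ra-/-, followed in WT by Vamp2 (30.4%) and Vamp3 (23.9%). Among syntaxins Stx4a led with 44.1%, 37.3% and 38.5% and Stx3 came second with 23.6%, 19.7% and 23.3%. Stxbp2 made up at least 96.2% of the Stxbp2 and Stxbp3 total in each library. Rab27b made up 95.2%, 96.6% and 91.7% of the RAB27 pair.

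**Figure D2:**
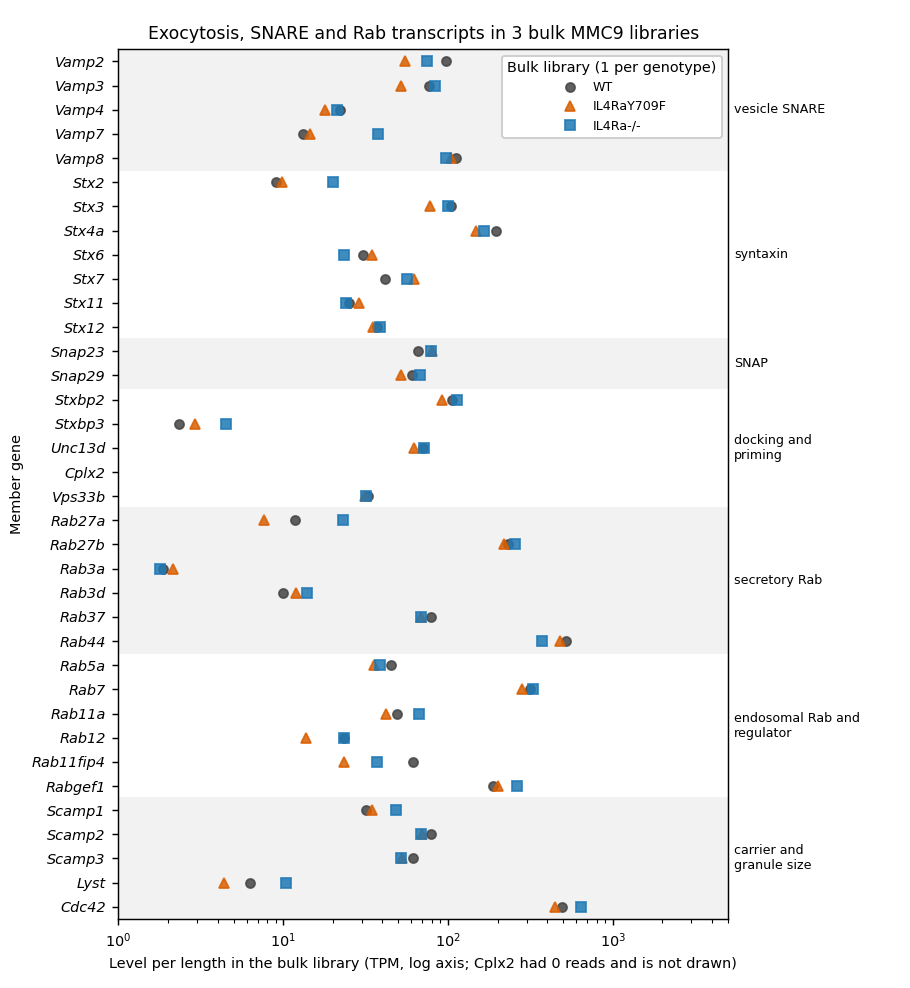
TPM (x axis, log scale) of each gene (y axis, by functional group) in the 3 bulk libraries, 1 point per genotype. Most genes have 3 nearly overlapping points; Vamp7, Stx2, Rab27a and Lyst have the IL4Ra-/- point to the right of the others, and Rab11fip4 has WT to the right at 61.3 TPM with IL4RaY709F at 23.3 TPM.

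The WT single cells show which parts are found in the same cell. Of the 81 cells, 80 had at least 10000 gene reads and were kept, with 163596 to 2210211 reads each. Detection required at least 10 reads in a cell. Intervals on shares are exact 95% intervals. Rab27b was detected in 68 of 80 cells (85%, 75.3% to 92.0%), Cdc42 in 66 (82.5%, 72.4% to 90.1%), Rab7 in 64 (80%, 69.6% to 88.1%) and Vamp8 in 61 (76.2%, 65.4% to 85.1%). A further 5 genes were detected in at least 50% of cells: Rab44 (55 cells), Stx3 (46), Rab11a (45), Rabgef1 (44) and Snap23 (42). These 9 are among the 29 genes of the set with at least 50 reads in WT bulk. Of all 5623 such genes, 22.8% were detected in at least 50% of cells. At the low end, 7 genes were found in under 10% of cells: Rab3d (7 cells), Stx2 (5), Rab27a (4), Rab11fip4 (3), Rab3a (2), Stxbp3 (2) and Cplx2 (1). For Cplx2, 119 of its 120 reads came from that 1 cell. No share of all genes under 10% is given here.

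**Figure D3:**
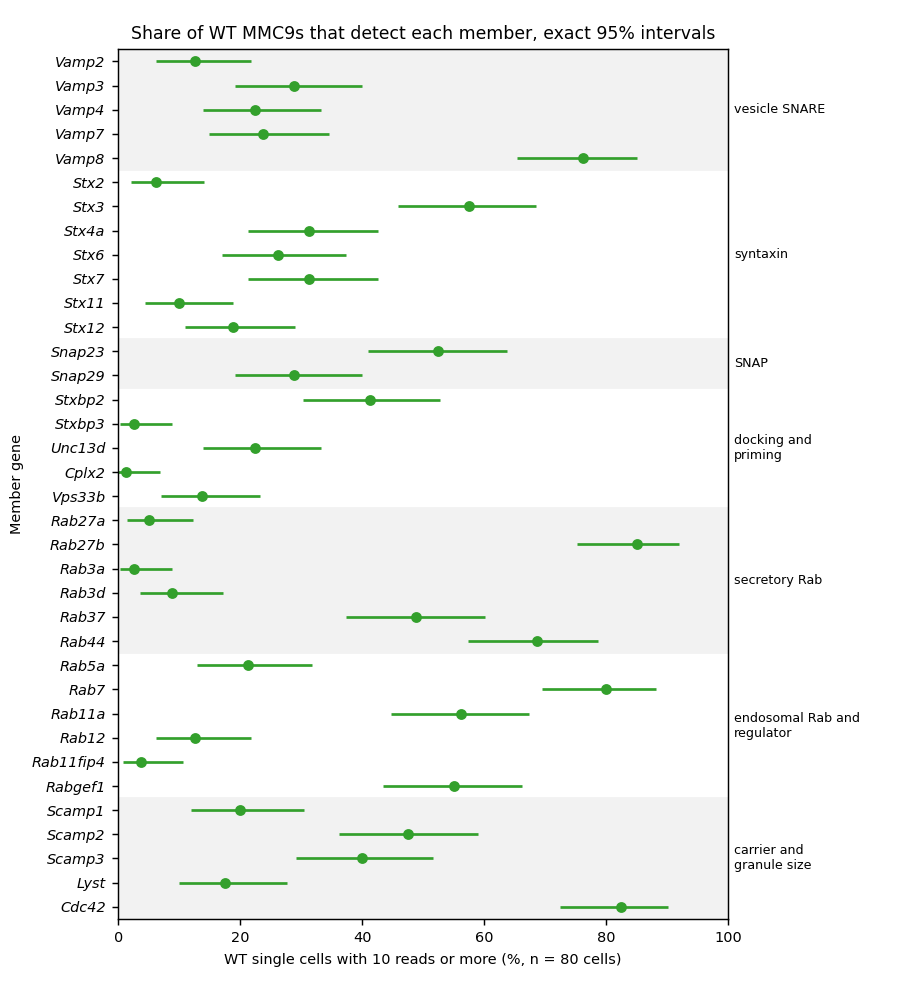
Share of the 80 WT cells with 10 reads or more (x axis, %) for each gene (y axis), with exact 95% intervals as lines. Rab27b, Cdc42, Rab7 and Vamp8 lie above 75%, and 7 genes lie under 10%.

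The remaining genes lay between these ends. Stxbp2 was detected in 33 cells and Unc13d in 18, and 10 cells had both. Stx4a was detected in 25 cells, Vamp3 in 23 and Vamp2 in 10. The median share was 31.25% over the 29 genes of the set with at least 50 reads in WT bulk, beside 27.5% over all 5623 such genes. These shares rest on depth. When each cell was thinned to 150000 reads, with no cell lost, Rab27b was detected in 75% of cells, Vamp8 in 53.75%, Rab44 in 52.5%, Stx3 in 41.25% and Stx4a in 15%.

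The level of a gene varied widely from cell to cell. Cdc42 had the smallest coefficient of variation of CPM (0.89, median 541 CPM, quartiles 134 and 889), then Rab7 (1.17, median 190 CPM) and Vamp8 (1.27, median 78.5 CPM, highest 992 CPM). Rab27b had a median of 290 CPM and a range of 1.07 to 4267 CPM, with at least 1 read in every cell. Among genes detected in at least 10 cells, the largest coefficients were those of Rab12 (4.30), Rab5a (4.20) and Vps33b (4.05), all with a median of 0 CPM. For Vps33b, 40.8% of all its reads came from 1 cell.

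A full set of fusion parts was not detected in every cell. At least 1 VAMP was found in 70 of 80 cells (87.5%, 78.2% to 93.8%), at least 1 syntaxin in 70, and Snap23 or Snap29 in 47 (58.75%, 47.2% to 69.6%). All 3 kinds together were found in 42 cells (52.5%, 41.02% to 63.8%). Vamp8 with Snap23 was found in 36 cells, and 27 of those (33.75% of the 80) also had Stx3 or Stx4a. Vamp8 was the sole VAMP detected in 22 cells. Rab27b or Rab44 was found in 72 cells and both in 51 (63.75%). The 4 cells with Rab27a all had Rab27b.

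Cells detected between 0 and 22 of the 36 genes, with a median of 12 (quartiles 9 and 15). That number followed how many genes a cell detected in all (249 to 4905, Spearman correlation 0.85 over 80 cells) and its gene reads (correlation 0.68). Over the 18 genes detected in at least 20 cells there were 153 pairs, whose Spearman correlation of CPM over the 80 cells had a median of 0.14 and a range of -0.25 to 0.37. The highest values were 0.37 each for Stx7 with Rab37, Rab7 with Rabgef1, and Rab11a with Cdc42. The lowest were Stx4a with Stx6 (-0.25), with Cdc42 (-0.24) and with Rab44 (-0.16). The points of each pair share a cell's library and depth, and correlations this weak in sparse counts are given as a description.

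**Figure D4:**
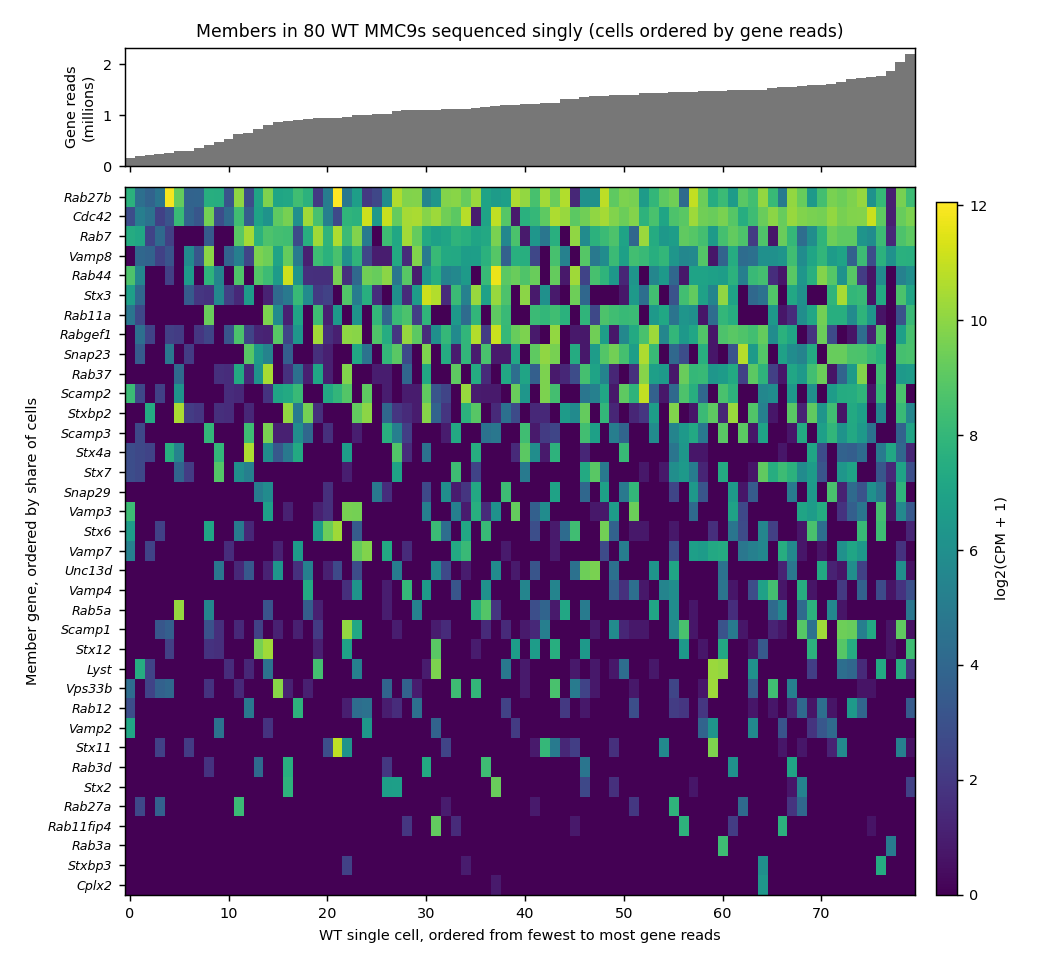
Log2(CPM + 1) of each gene (rows, ordered by share of cells) in 80 WT cells (columns, ordered from fewest to most gene reads), with gene reads per cell above. The cells with the fewest reads at the left hold fewer detected genes, and the lower rows are filled in a few cells each.

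The summed single cells and the WT bulk library ranked the genes alike, with a Spearman correlation of 0.78 between TPM values over the 36 genes. Of these, 21 were within 2-fold, 7 were over 2-fold higher in the cells and 8 over 2-fold lower, on the log2(CPM + 1) scale. Of all 13099 genes with at least 50 reads in either, 49.4% were within 2-fold, 29.6% higher and 20.9% lower, and 58.3% of the set were within 2-fold. The exceptions were large for Vamp2, at 117 CPM in WT bulk without TMM scaling and 4.32 CPM in the cells, and for Rab11fip4, at 143 and 14 CPM. Among the 5623 genes with at least 50 reads in WT bulk, 7.33% were over 8-fold lower in the cells, and both of these genes were. Rab44 was 3.08-fold lower in the cells (819 and 266 CPM). Vamp7 went the other way, with 10.4 CPM in bulk and 43.9 CPM in the cells, 4.21-fold. These summed levels rest on few cells. The 5 cells with the most reads of a gene held 57.1% of its reads for Vamp7 and 79.7% for Vamp2. They held 99.7% for Rab11fip4 and 40.7% for Rab44.

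The order within families differed accordingly. In the cells Vamp8 held 61.7% of the VAMP total by TPM and Vamp2 0.991%. Stx3 held 37.02% of the syntaxin total and Stx4a 18.2%, the reverse of their order in bulk. The 5 cells with the most reads held 44.3% of the Stx3 reads and 62.9% of the Stx4a reads. Snap23 held 84.4% of the SNAP pair in the cells and 52.1% in WT bulk. The cells and the bulk library come from different allergy models, and the sources used here do not give the gate of the bulk sort, so that model, gate and library type cannot be told apart.

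**Figure D5:**
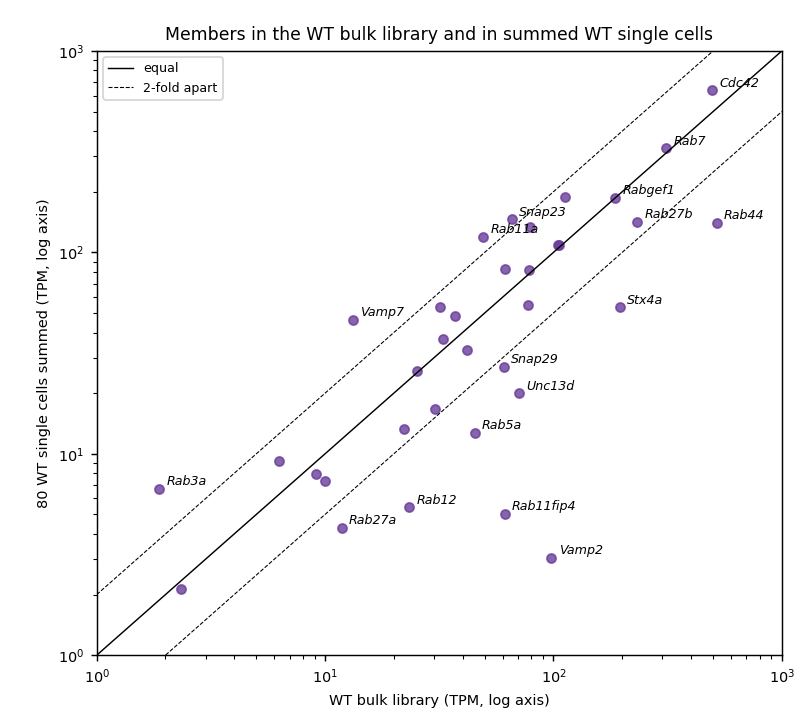
TPM of each gene in the WT bulk library (x axis, log scale) against TPM in the summed reads of 80 WT cells (y axis, log scale), 1 point per gene, with lines at equality and 2-fold; Cplx2, with 0 bulk reads, is not drawn. Vamp2 (97.96 and 3.04 TPM) and Rab11fip4 (61.3 and 5.03 TPM) lie far below the line, and Vamp7 (13.2 and 46.3 TPM) lies above it.

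Of 158 other genes of SNARE, tethering, Rab and granule biogenesis families, 79 had enough reads in IL4RaY709F against WT and 0 passed the size rule; in IL4Ra-/- against WT, 83 had enough and 0 were higher and 2 lower. Over all genes 1.68% were higher and 0.771% lower in the first comparison, and 2.43% and 1.3% in the second. Their medians were 0.00 and -0.07. Bet1l, an endosomal and Golgi SNARE, had 158 reads in WT, 176 in IL4RaY709F and 86 in IL4Ra-/-, a low IL4Ra-/- library at log2 -1.03 to WT (-1.43 to -0.64). Tbc1d10a, a Rab GTPase-activating protein that acts on RAB27A, had 214, 254 and 98 reads and was also low in IL4Ra-/- (-1.28, -1.64 to -0.93). By total reads 1 of these 2 passed, where 0.72% of all genes were lower.

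Between the mutants 3 of 82 pathway genes (Tbc1d10a, Bet1l and Rab38) were higher in IL4RaY709F and 0 lower, where 4.62% and 3.5% of all genes were. Rab38, a Rab of lysosome-related organelles, had 353 reads in WT, 531 in IL4RaY709F and 289 in IL4Ra-/-, a ratio of 2.01 between the mutants (1.74 to 2.33). By total reads 1 of the 3 passed, where 2.29% of all genes were higher. The highest of the wider list in WT were Rac2 (1195 TPM), a small GTPase of blood cells, Sytl3 (361 TPM), a RAB27 effector, and Rab5c (336 TPM). The classical calcium sensors of neurons were nearly absent: Syt1 and Syt9 had 0 reads in all 3 bulk libraries, and Syt2 and Syt7 had at most 1 read in any.

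RefSeq promoters (GRCm38.p6, 250 bases before to 50 after the start) were matched for 26 of the 36 genes. The E-box CACGTG, a palindrome bound by MITF-family and other basic helix-loop-helix factors, was 1 of 8 motifs searched. It is shown first because its share in the set stood highest relative to both reference sets. As it was picked on these shares, they are a description and no test. The motif was in 6 of 26 genes (23.1%), beside 8.09% of all 27025 genes and 12.9% of the 5047 with at least 50 bulk reads. The genes are Vamp4, Stx6, Stxbp2, Rab27a, Rab5a and Scamp1. A gene counted when any of its promoter windows held the motif, and more windows give more room for a match. The 26 genes have 35 windows, and all 27025 genes have 32851. Vamp4, Rab27a and Scamp1 have 2 windows each. These 6 genes differed in the bulk libraries: Stx6 was lowest and Rab27a highest in IL4Ra-/-, and Stxbp2 was even. The stretches below, 5′ to 3′ on the gene's strand, show the motif in capitals with its flanks in 5 of these genes.
Stx6 (chr1:155158601-155158640, plus): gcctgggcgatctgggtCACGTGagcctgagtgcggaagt
Vamp4 (chr1:162570335-162570374, plus): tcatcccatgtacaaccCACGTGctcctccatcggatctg
Rab27a (chr9:73063898-73063924, plus): cttgCACGTGctcctccgtctgtctga
Scamp1 (chr13:94285928-94285967, minus): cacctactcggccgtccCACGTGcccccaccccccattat
Rab5a, first (chr17:53478984-53479021, plus): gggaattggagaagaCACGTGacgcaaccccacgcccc
Rab5a, second (chr17:53479122-53479161, plus): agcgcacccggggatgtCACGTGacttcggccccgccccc
The Rab27a stretch lies in the downstream of its 2 windows, whose start is 19294 bases inside the gene. A match describes these letters only and is not evidence of binding.

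For the other motifs, searched on both strands, the shares are given as members, then genes with at least 50 reads. GGGCGG, the core of SP-family sites, was in 76.9% and 73.03%, CCAAT in 50% and 41.5%, and GATAA, of GATA factors, in 23.1% and 18.5%. CCGGAAG, of ETS factors, was in 15.4% and 23.1%. The STAT6-type site, TTC and GAA with any 4 bases between, was in 3.85%, that is in Stxbp2 alone, and 6.40%. CATGTG and TGANTCA were in 0 of the 26 promoters and in 9.97% and 6.16% of those genes. No match says only that these letters are not in this window.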

How the data were processed

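The members and gene lists were chosen with earlier results of these data known. Reads were aligned with HISAT and assigned with featureCounts (Subread 2.0.0), per the submitters' processing notes, and the authors deposited unnormalized counts of reads for every gene. The notes name GRCm38 and mm9 without roles; 99.4% of the 55230 gene IDs found in GENCODE M21 have the same GRCm38 coordinates. The sources used here do not give the strand setting, the handling of multi-mapped reads or molecular identifiers, so overlapping genes (8 members share exon bases with another gene) cannot be told apart.

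From the counts, TMM factors (edgeR 4.0.16, R 4.3.3) were computed over the 3 bulk libraries. Each log2 ratio has an exact conditional binomial (Clopper-Pearson) 95% interval. With 1 library per genotype, no model was fitted. TPM used the deposited merged exon length. Single cells were kept at 10000 gene reads (80 of 81; the cell left out had 1225) and summed for the comparison with bulk; cells were sorted singly and no doublet caller was run. For a gene in 0 of 80 cells the exact upper limit is 4.51%. Promoters came from RefSeq tables; those of Vamp2, Vamp3, Vamp7, Unc13d, Vps33b, Rab27b, Rab37, Rab44, Rab11fip4 and Scamp3 were not matched. The scripts were tested on simulated counts.

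Full values are given for members past the size rule, the 3 highest and 3 lowest ratios per comparison, the 5 highest by TPM in WT, the 3 largest and smallest coefficients of variation, and 12 members of the known mast cell machinery always named. Alternatives were scaling by total reads or RLE size factors, TMM without immunoglobulin and mitochondrial genes, read minimums of 20, 200 and none, a 1.5-fold threshold, and other detection limits for cells.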

Additional observations from a re-analysis of the deposited data

How the results depend on the processing

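No paired analysis was possible because each genotype has 1 library. Of 88 repeats of the counts and medians under another setting, 66 stayed within their limits (counts within 1.5 times) and 22 moved. The members' medians, which carry no call, changed sign by total reads, to -0.09 and 0.08 against WT and -0.17 between the mutants. At 1.5-fold, 1 member was higher and 2 lower in IL4RaY709F against WT, 4 higher and 1 lower in IL4Ra-/- against WT, and 2 higher and 4 lower between the mutants; the wider pathway list then had 3 and 1, 1 and 6, and 10 and 3. At 200 reads no member was higher in IL4Ra-/- (0) or lower between the mutants (0), since fewer genes are tested. By total reads the wider list had 1 lower in IL4Ra-/- and 1 higher between the mutants, and the members ordered with receptor activity were 3 descending and 11 ascending, 2 of the latter past the size rule. The order was not counted over all genes by total reads. RLE factors, TMM without immunoglobulin and mitochondrial genes, and minimums of 20 reads or none moved no count of members past the size rule. With a single read as detection, 14 members were in at least 50% of cells and the median share was 41.25%, beside 9 members and 25% at 10 reads; thinned to 150000 reads, 5 members were and the median was 15.6%. Shares over all genes were not computed at these other detection limits. Depth limits what can be said of members under 50 reads in both libraries, which were not tested, and the spread between animals is unknown.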
